A study of Mus musculus with 4 samples.

Results

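Among 37865 barcodes kept from 4 single-cell RNA libraries of mouse aorta, 395 carried macrophage transcripts with few or none from the marker genes of foamy or resident macrophages. A barcode stands for 1 droplet, and a UMI (unique molecular identifier) for 1 captured RNA molecule. Kept barcodes had at least 1000 UMIs and at most 10% of them from mitochondrial genes. The 395 barcodes were chosen by their own counts: at least 5 UMIs of the complement genes C1qa, C1qb and C1qc together, at most 2 UMIs over the resident genes Lyve1, Folr2, Cd163, F13a1, Cbr2 and Mrc1, at most 1 over the foamy genes Gpnmb, Trem2 and Mmp12, and none of the lymphocyte genes Cd79a, Ms4a1 and Cd3e. Levels of these 15 genes are therefore a description of the choice and not a result. Because the class is what remains after other classes are taken away, its members need not be of 1 kind, and they are called selected barcodes below.

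The libraries came from perfused, enzyme-digested aortas of 4 groups, with 1 library a group: WT mice on normal diet, LysM-DKO mice on normal diet, WT/ApoE-/- mice on western diet, and LysM-DKO/ApoE-/- mice on western diet. What LysM-DKO stands for is not given in the labels. The series title names the epsins, endocytic adaptors encoded by Epn1 and Epn2, and LysM is the usual short name of the lysozyme M gene Lyz2, whose promoter drives Cre in granulocytes, monocytes and macrophages. Both western diet groups lack ApoE and neither normal diet group is labelled so, so diet and ApoE loss cannot be told apart. The number, age and sex of the animals behind each library are not given in the sources used here. With 1 library a group no difference between groups has a replicate check, and every interval below covers counting error only.

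C1q, the recognition unit of the classical complement pathway, is made by most tissue macrophages. In the arterial wall, resident macrophages marked by Lyve1 and Folr2 sit mainly in the adventitia, while foamy macrophages marked by Trem2 and Gpnmb take up lipid in the plaque. A further population of inflammatory macrophages is known from atherosclerotic arteries. Its cells transcribe chemokines such as Ccl3, Ccl4 and Cxcl2 and the cytokines Tnf and Il1b, under NF-kB, and many also carry MHC class II, which presents antigen to CD4 T cells.

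Some chemokine and interferon genes were among those that differed most between libraries in the selected barcodes. Promoters of 4 genes of these kinds are shown, from RefSeq (GRCm38.p6), as the 150 bases that end just before the transcription start. They are Cxcl2 (chr5:90903749-90903898, plus strand), which encodes a neutrophil chemokine, Cxcl10 (chr5:92348890-92349039, minus strand), an interferon-induced T cell chemokine, Rsad2 (chr12:26456453-26456602, minus strand), the antiviral enzyme viperin, and Ifit1 (chr19:34640739-34640888, plus strand), which binds viral RNA. Capitals mark an NF-kB-like motif in the chemokine promoters, spelled GGGA, any base, TT, any base, CC, and an interferon response motif in the others, spelled TTTC, any 2 bases, TTTC. The motifs were searched on both strands. Rsad2 and Ifit1 ranked among the genes that differed most, and Cxcl2 and Cxcl10 did not.
Cxcl2: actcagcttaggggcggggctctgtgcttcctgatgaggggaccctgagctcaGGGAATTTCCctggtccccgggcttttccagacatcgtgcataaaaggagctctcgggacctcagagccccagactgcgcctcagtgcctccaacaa
Cxcl10: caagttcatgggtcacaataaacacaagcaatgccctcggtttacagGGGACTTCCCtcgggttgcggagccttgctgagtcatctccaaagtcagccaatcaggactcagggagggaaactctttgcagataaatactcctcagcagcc
Rsad2: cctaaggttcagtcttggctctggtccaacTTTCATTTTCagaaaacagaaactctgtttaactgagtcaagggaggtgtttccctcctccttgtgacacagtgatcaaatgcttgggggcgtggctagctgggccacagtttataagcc
Ifit1: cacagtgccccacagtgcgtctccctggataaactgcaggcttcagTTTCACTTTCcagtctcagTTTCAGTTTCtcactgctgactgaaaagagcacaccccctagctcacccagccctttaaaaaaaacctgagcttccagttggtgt
In windows of 250 bases before the start, the NF-kB-like letters were found in 322 of 32851 promoters (0.980%). They were found in 4 of 14 windows of the chemokine lists, those of Cxcl1, Cxcl2, Cxcl3 and Cxcl10, and in 3 of 20 windows of the list of IL-1, TNF and NF-kB targets, those of Il6, Nfkbia and Tlr2. The interferon motif was in 978 of 32851 windows (2.98%) and in 7 of 13 windows of the interferon-stimulated list, those of Bst2, Gbp2, Ifi211, Ifit1, Ifit3, Isg15 and Rsad2. The table held 14 of 20 chemokine genes, 16 of 20 NF-kB target genes and 12 of 18 interferon-stimulated genes. A match describes letters only and not a bound site.

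The selected barcodes numbered 9 in WT normal diet, 38 in LysM-DKO normal diet, 335 in WT/ApoE-/- western diet and 13 in LysM-DKO/ApoE-/- western diet. The western diet WT library thus held most of them. As a share of kept barcodes they were 0.116% (exact binomial 95% interval 0.0531 to 0.220, 7758 barcodes), 0.462% (0.327 to 0.633, 8230), 2.44% (2.19 to 2.71, 13744) and 0.160% (0.0851 to 0.273, 8133). Of the C1q-positive barcodes without lymphocyte UMIs they were 10.6% of 85, 20.3% of 187, 37.2% of 901 and 9.63% of 135. In both normal diet libraries most such barcodes were resident (66 and 117), whereas foamy barcodes led in WT/ApoE-/- (399) and foamy (54) and resident (56) were about equal in LysM-DKO/ApoE-/-. The interval of the WT/ApoE-/- share lay above those of the other libraries.

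**Figure D1:**
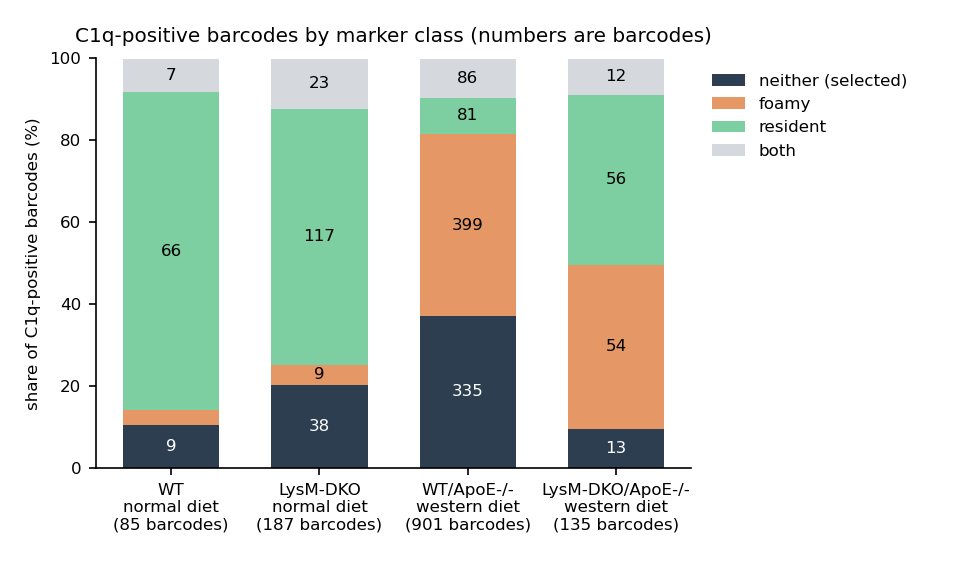
Share of C1q-positive barcodes (y axis, %) that fell in each marker class in each of the 4 libraries, with the number of barcodes written in the larger segments and the total under each bar. Selected barcodes, the dark segments at the bottom, made up 37.2% in WT/ApoE-/- on western diet and between 9.63% and 20.3% in the other libraries.

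The selected barcodes were shallow in some libraries. Their median UMI counts were 2189 and 3928 (WT, LysM-DKO) on normal diet, and 1693 and 3891 (WT/ApoE-/-, LysM-DKO/ApoE-/-) on western diet. In WT/ApoE-/-, 203 of the 335 had under 2000 UMIs and 169 had only 5 to 7 C1q UMIs, against none of the 13 in LysM-DKO/ApoE-/- for either. A shallow barcode passes limits of 2 and 1 UMIs more easily, so depth moves with membership. Just inside the C1q limit, at 5 UMIs, lay 0, 2, 74 and 0 selected barcodes in the order of groups above, and just outside, at 4, lay 3, 3, 112 and 0. At the foamy limit, 1, 4, 149 and 5 barcodes had the allowed 1 UMI and 1, 2, 75 and 7 were left out with 2. At the resident limit, 3, 11, 31 and 2 had the allowed 2 UMIs and 4, 3, 12 and 1 were left out with 3. Barcodes with no resident and no foamy UMI at all numbered 2, 15, 127 and 4.

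Macrophage markers that the choice did not use were seen in the selected barcodes of every library and were lowest in WT/ApoE-/-. Beside C1q, 13 further macrophage markers were counted, among them Csf1r, the receptor for the macrophage growth factor CSF1, the F4/80 gene Adgre1, and the signalling adaptors Tyrobp and Fcer1g. Their summed level was 7629, 8580, 4548 and 8311 counts per 1000000 UMIs (CPM) in WT, LysM-DKO, WT/ApoE-/- and LysM-DKO/ApoE-/-, against 239 to 374 CPM in kept barcodes with under 5 C1q UMIs. Csf1r was at 523 CPM (exact Poisson 95% interval 305 to 837), 274 (198 to 369), 199 (170 to 231) and 611 (430 to 843), and was seen in 6 of 9, 21 of 38, 96 of 335 and 10 of 13 barcodes. Wall markers, the genes of the smooth muscle and fibroblast lists, outnumbered macrophage markers other than C1q in 4 of 9, 15 of 38, 268 of 335 and 1 of 13 selected barcodes. In WT/ApoE-/- that is 80% of the set. The median barcode there had 268 wall marker UMIs per 10000 and 36.4 macrophage marker UMIs per 10000. The same medians were 73.1 and 78.2 in WT, 57.5 and 72.9 in LysM-DKO, and 24.99 and 85.6 in LysM-DKO/ApoE-/-. When each barcode was thinned to 1000 UMIs, 30 of the 335 WT/ApoE-/- barcodes held none of the 13 markers, and every selected barcode of the other libraries held at least 1.

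**Figure D2:**
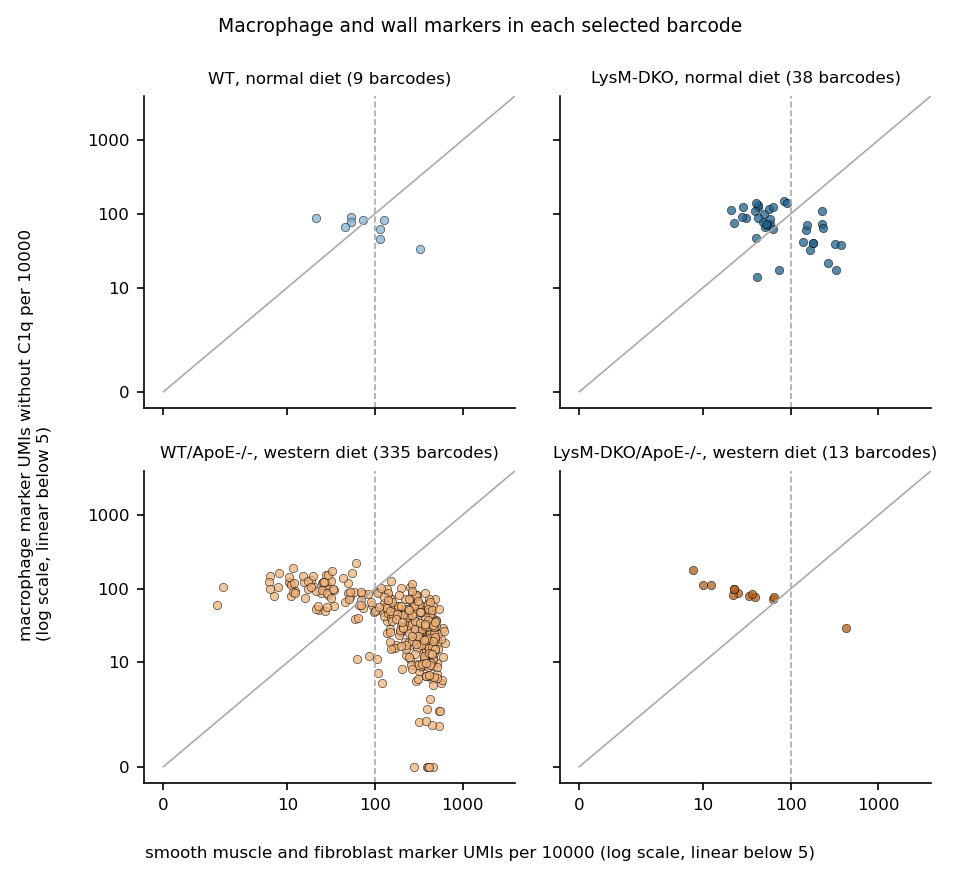
Macrophage marker UMIs other than C1q (y axis) against smooth muscle and fibroblast marker UMIs (x axis), both per 10000 UMIs on log scales that are linear below 5, with 1 point for each selected barcode and 1 panel for each library. The grey diagonal marks equal amounts and the dashed line 100 wall marker UMIs per 10000, which 5 of 9, 25 of 38, 78 of 335 and 12 of 13 barcodes did not exceed.

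The wall signal was that of smooth muscle and, in WT/ApoE-/-, of fibroblast genes. The contractile actin gene Acta2 was at 2892, 3322, 7601 and 3718 CPM in the order of groups above. Its level in kept barcodes with under 5 C1q UMIs was 12778, 9832, 13468 and 17475 CPM. In LysM-DKO/ApoE-/- 1 barcode of 14026 UMIs gave 83.8% of the smooth muscle marker UMIs. The collagen-binding proteoglycan genes Lum and Dcn were at 1228 and 1806 CPM in WT/ApoE-/- and at most 33.0 and 178 CPM elsewhere. Wall genes move with the western diet comparisons below. MHC class II, several chemokine and inflammatory genes and some lists are therefore given with and without barcodes over 100 wall marker UMIs per 10000. The other genes there are given over all selected barcodes only.

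Markers of other blood cells ranged from none to 535 CPM, apart from the monocyte and erythroid lists. The monocyte list, which holds Lyz2, Fn1 and S100a4 as well as Ly6c2 and Ccr2, summed to 3353, 1820, 4663 and 1950 CPM, in WT/ApoE-/- above the 4548 CPM of the macrophage markers, against 1909, 2157, 5300 and 3634 CPM in kept barcodes with under 5 C1q UMIs. Within that list, Fn1 in WT/ApoE-/- was at 3139 CPM in barcodes over 100 wall marker UMIs per 10000 and 308 in the others. The sum there is therefore not a measure of monocytes alone. B or plasma cell markers were at 400, 535, 158 and 33.0 CPM. Summed T or NK cell markers were at 0, 57.3, 86.2 and 132 CPM, neutrophil markers at 30.8, 31.8, 113 and 49.6 CPM, and dendritic cell markers at 246, 185, 86.2 and 33.0 CPM. Mast cell markers were at 0 in all libraries but WT/ApoE-/-, at 6.90 CPM. The inflammatory monocyte gene Ly6c2 was seen in 0, 2, 5 and 0 barcodes and the monocyte chemokine receptor gene Ccr2 in 0, 5, 22 and 3. The hemoglobin signal of LysM-DKO on normal diet, 10381 CPM over the erythroid list, came to 95.5% from 1 barcode.

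Several facts of the libraries bear on every comparison between them. Kept barcodes had a median of 4167, 3404, 2103 and 6761 UMIs, and the selected barcodes summed to 32506, 157111, 869654 and 60520 UMIs, so a gene with no UMI could still be at up to 92.3, 19.1, 3.45 and 49.6 CPM, the level of 3 UMIs. The normal diet libraries carried Xist at 950 CPM and no Ddx3y, and the western diet libraries carried Ddx3y at 117 and 124 CPM and Xist at under 1 CPM, so the diet pairs also differ in the sex of the cells. Over the 6 pairs of libraries 143 kept barcode sequences were shared, none of them between 2 selected barcodes. A doublet caller marked 0, 3, 32 and 2 selected barcodes.

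The genes that the labels point to were sparse. Epn1 had 3, 4, 36 and 0 UMIs and Epn2 had 0, 9, 51 and 1 UMIs in the selected barcodes, and the deleted part of either gene is not given in the sources used here, so these counts check no label. Lyz2, which encodes lysozyme M, was at 2615 CPM (2089 to 3233) in the WT library, 363 (275 to 470) in LysM-DKO, 992 (927 to 1061) in WT/ApoE-/- and 694 (500.2 to 938) in LysM-DKO/ApoE-/-. The LysM-DKO library was thus lower on both diets, by a log2 ratio of -2.85 (-3.36 to -2.35) and -0.50 (-0.999 to -0.07), although the second was 0.19 among barcodes with at least 2000 UMIs. Resident barcodes differed in the same direction, with 4108 (WT) and 1160 CPM (LysM-DKO) on normal diet, and 2432 and 989 CPM in the same order in ApoE-/-. In LysM-DKO/ApoE-/- 64.3% of the Lyz2 UMIs came from 1 of 13 barcodes. Apoe had 103 and 425 UMIs in the normal diet libraries and 5 and 1 in the ApoE-/- libraries, as their labels say.

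The CC chemokine genes Ccl3 and Ccl4 lie close together on chromosome 11 (GRCm38, Ccl3 at 83647844 to 83649355 and Ccl4 at 83662584 to 83664683) and encode chemokines that draw monocytes and T cells. Ccl4 was at 34363 CPM (32377 to 36439) in WT, 7867 (7435 to 8318) in LysM-DKO, 3202 (3085 to 3324) in WT/ApoE-/- and 7386 (6717 to 8103) in LysM-DKO/ApoE-/-. The WT normal diet library was highest and the WT/ApoE-/- library lowest, while the intervals of both LysM-DKO libraries overlapped. Kept barcodes with under 5 C1q UMIs had 54.6, 46.3, 32.9 and 1.87 CPM, so Ccl4 in the selected barcodes was far above that of the rest in each library. Thinned to 1000 UMIs, 55.6%, 36.8%, 42.4% and 69.2% of selected barcodes held a Ccl4 UMI, against 1.55%, 2.70%, 3.30% and 0.150% of 2000 of the rest at the same depth. Without thinning the shares were 55.6%, 44.7%, 52.5% and 84.6%. Ccl3 followed the same order of libraries as Ccl4 for the highest and lowest, at 6891 (6018 to 7855), 961 (814 to 1127), 548 (500 to 600) and 1818 CPM (1494 to 2191).

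These chemokine levels rested on few barcodes, above all in WT normal diet. There 3 of the 9 barcodes carried 99.8% of the 2130 UMIs of Ccl4, Ccl3, Cxcl2 and Tnf, and 2 barcodes carried none. In LysM-DKO on normal diet the top 3 of 38 barcodes carried 52.0% of 3183 UMIs, and 15 carried none. In WT/ApoE-/- the top 3 of 335 carried 13.4% of 8077 UMIs, and 78 carried none. All 13 barcodes of LysM-DKO/ApoE-/- carried some, and the top 3 held 47.0% of 1495 UMIs. The number of barcodes with at least 100 of these UMIs per 10000 was 3, 13, 77 and 11.

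Other inflammatory genes were spread over the libraries in different ways. Cxcl2, which encodes a CXCR2 ligand that draws neutrophils, was at 21688 CPM (20117 to 23350), 10840 (10331 to 11367), 4954 (4807 to 5104) and 14458 (13516 to 15449), and was seen in 5 of 9, 21 of 38, 225 of 335 and 13 of 13 barcodes. Tnf, on chromosome 17 (GRCm38, 35199381 to 35202007), encodes tumour necrosis factor and was at 2584 CPM (2061 to 3199), 592 (478 to 725), 583 (533 to 636) and 1041 (800 to 1332). In WT normal diet 77.4% of its UMIs came from 1 barcode. Il1b, the gene of interleukin 1 beta, was highest in LysM-DKO on normal diet at 1292 CPM (1120 to 1483) in 15 barcodes, against 413 (371 to 458) in WT/ApoE-/- and 380 (241 to 570) in LysM-DKO/ApoE-/-, and its 11 UMIs in WT came from 1 barcode. Nlrp3, the inflammasome sensor that leads to interleukin 1 beta release, was at 277 (127 to 526), 356 (269 to 463), 360 (321 to 402) and 876 CPM (656 to 1145). At 1000 UMIs a barcode, Nlrp3 was seen in 76.9% of LysM-DKO/ApoE-/- barcodes and in 20.6% to 22.2% of those of the other libraries. Among barcodes with at most 100 wall marker UMIs per 10000 the western diet libraries overlapped. Nlrp3 was there at 1020 CPM (896 to 1156) in WT/ApoE-/- and 1140 (854 to 1491) in LysM-DKO/ApoE-/-.

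MHC class II was carried by nearly all selected barcodes outside WT/ApoE-/-. The chains of the antigen-presenting molecule are encoded by H2-Aa, H2-Ab1 and H2-Eb1, within chromosome 17 (GRCm38, 34257689 to 34316674 from the first to the last), and Cd74 encodes the invariant chain that guides their loading. Cd74 was at 12367 CPM (11187 to 13637), 7091 (6680 to 7519), 2331 (2230 to 2435) and 11897 (11044 to 12799) in WT, LysM-DKO, WT/ApoE-/- and LysM-DKO/ApoE-/-. H2-Aa was at 6737 (5874 to 7691), 4354 (4033 to 4692), 1313 (1238 to 1392) and 5866 CPM (5271 to 6509), and H2-Ab1 at 5076, 3272, 1030 and 4180 CPM. WT and LysM-DKO/ApoE-/- overlapped in their intervals for Cd74 and H2-Aa, LysM-DKO lay below them, and WT/ApoE-/- was lowest. At 1000 UMIs a barcode, Cd74 was seen in 100%, 78.9%, 41.5% and 100% of selected barcodes, against 17.8%, 22.2%, 15.2% and 0.700% of barcodes with under 5 C1q UMIs.

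Barcodes with both chemokine and MHC class II transcripts were found in every library. At 1000 UMIs, 6 of 9, 17 of 38, 143 of 335 and 13 of 13 selected barcodes had at least 1 UMI of both the MHC class II list and the group Ccl4, Ccl3, Cxcl2 and Tnf. Barcodes with MHC class II but no such chemokine UMI numbered 3, 17, 34 and 0, and those with the chemokines but no MHC class II numbered 0, 2, 89 and 0. Barcodes with neither were 0, 2, 69 and 0. Barcodes without MHC class II at this depth were thus largely those of WT/ApoE-/-. In WT and in LysM-DKO/ApoE-/- no barcode lacked it, so any barcode with the chemokines there held both. That the transcripts met more often than their separate frequencies would give was not tested.

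**Figure D3:**
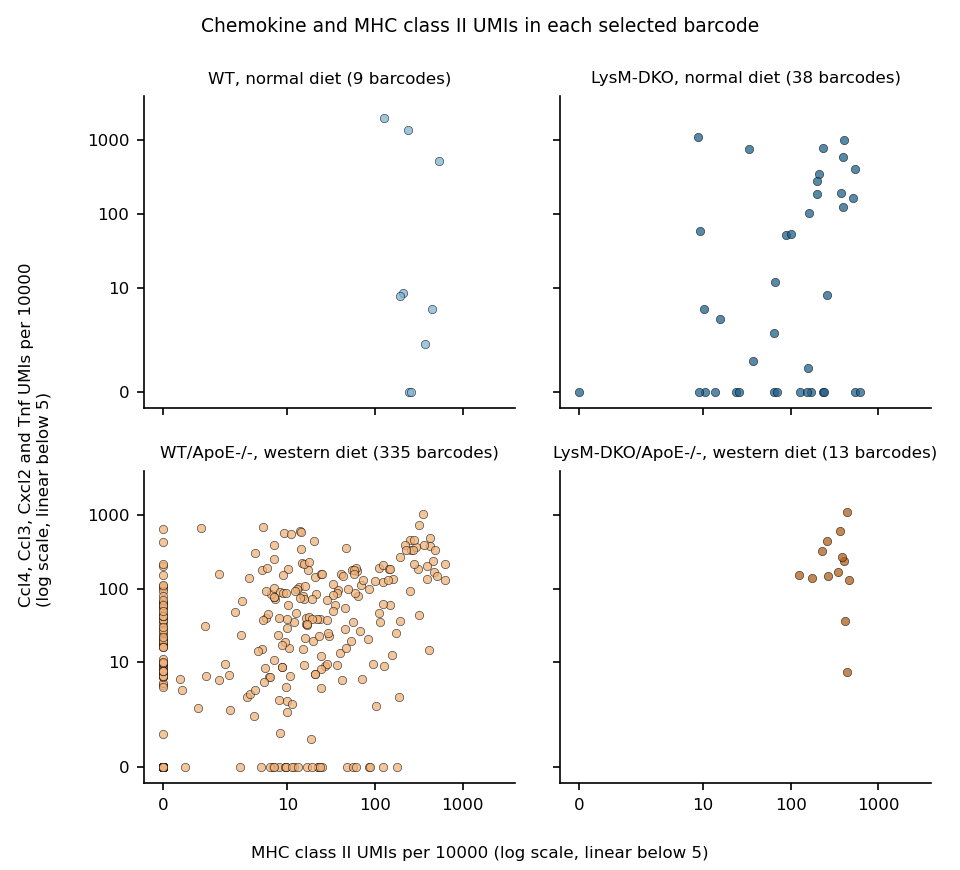
UMIs of Ccl4, Ccl3, Cxcl2 and Tnf (y axis) against UMIs of the MHC class II list (x axis), per 10000 UMIs on log scales that are linear below 5, with 1 point for each selected barcode and 1 panel for each library. In WT normal diet 3 barcodes stand at 513 chemokine UMIs per 10000 or more and the others near 0, while all 13 barcodes of LysM-DKO/ApoE-/- hold both kinds of transcript.

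Genes of lipid-laden macrophages differed by library and not as 1 group. Spp1, which encodes the matrix cytokine osteopontin, had no UMI in WT, 46 UMIs in LysM-DKO on normal diet (97.8% from 1 barcode), and was at 3511 CPM (3387 to 3637) in WT/ApoE-/- and 182 (90.7 to 325) in LysM-DKO/ApoE-/-. The kept barcodes with under 5 C1q UMIs stood at 60.1, 52.6, 4256 and 313 CPM, so Spp1 was no higher in the selected barcodes of WT/ApoE-/- than in the rest of that library. Lgals3, the galectin 3 gene, was at 585 (352 to 913), 1139 (979 to 1319), 865 (804 to 929) and 1041 CPM (800 to 1332). Fabp5, a fatty acid binding protein gene, was at 2024 CPM in LysM-DKO on normal diet, where 66.4% of its UMIs came from 1 barcode, and at 92.3 to 364 CPM elsewhere. The cholesterol exporters were seen at 30.8, 95.5, 285 and 397 CPM for Abca1 and at 61.5, 127, 113 and 149 CPM for Abcg1, with 1 and 2 UMIs behind the WT values.

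On normal diet, Ccl4, Ccl3 and Tnf were lower in the LysM-DKO than in the WT library in the summed selected barcodes. Ccl4 had a log2 ratio, LysM-DKO over WT, of -2.13 (-2.24 to -2.01), Ccl3 of -2.84 (-3.15 to -2.54) and Tnf of -2.13 (-2.57 to -1.68). Of 9 interferon-stimulated genes 3 were at least 2-fold lower, with Rsad2 at -3.52 (-4.16 to -2.93), Ifit1 at -3.30 (-4.46 to -2.29) and Ifit2 at -5.44 (-8.87 to -3.71), and 2 were higher, among them the membrane protein gene Ifitm3 at 1.33 (0.43 to 2.57). The median of that list was -0.89, and 0.26 without the richest barcodes. Of 1496 genes with at least 20 UMIs over the pair, 17.1% were at least 2-fold higher and 8.22% at least 2-fold lower in LysM-DKO, 25.3% in all. Against that background, 1 of 8 CC chemokines was higher and 4 were lower, with a median log2 ratio of -0.97 beside 0.12 for all genes. Of 6 CXC chemokines 2 were higher and 1 lower, with a median of 0.19. Of the 6 MHC class II genes none differed 2-fold and the median was -0.68. Macrophage identity genes had a median of -0.18, with none of 10 apart by 2-fold.

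Single barcodes set much of this. A value without the richest barcode takes out the UMIs of that gene in it, while the library total keeps the barcode's UMIs. Such values are therefore approximate, and one near 0 does not settle a direction. Without the barcode richest in the gene in each library, the Tnf ratio was -0.32, that of Ccl2 went from -2.20 to -0.41, that of Rsad2 to -0.16 and that of Cxcl2 from -1.001 to 0.11. Ccl4 stayed at -1.87 and Ccl3 at -2.12. Of the 12 lower genes named by rank, 9 had over 50% of their UMIs in 1 barcode of a library. Of all 12, 6 were still 2-fold lower without their richest barcodes. They were Ifit2, Eps8 and Ccl3 from those 9, and Lyz2, Ccl4 and Tlr2 from the others. The CC chemokine median turned to 1.68 without the richest barcodes. When only barcodes with no resident and no foamy UMI were used, which leaves 2 in WT, the Ccl4 ratio was 6.03. In kept barcodes with under 5 C1q UMIs, Ccl4 had a log2 ratio of -0.24.

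Of the 12 genes named by rank as higher in LysM-DKO on normal diet, 5 had over 50% of their UMIs in 1 barcode of a library, among them Cxcl13, Ccl8 and Spp1. The others had at most 50% in 1 barcode. Ifitm2, an interferon-induced membrane protein gene, was seen in 29 of 38 barcodes and had a log2 ratio of 3.38 (1.81 to 6.75), or 3.99 without its richest barcodes. Hmox1, the heme oxygenase gene, was at 2228 CPM against 554 in WT and had a ratio of 1.97 (1.33 to 2.78). Wfdc17, the gene of a secreted whey acidic protein, had a ratio of 2.52 (1.40 to 4.30) from 21 barcodes. The Fc receptor gene Fcgr4 was seen in 14 barcodes of LysM-DKO and none of WT, 3.79-fold higher than the level of the 3 UMIs that a count of 0 allows. The B cell chemokine gene Cxcl13 was 11.9-fold above that level, and its 172 UMIs came from 4 barcodes. Such folds ignore counting error in the other library and are not lower limits. The intervals of the log2 ratios began at 1.58 for Fcgr4 and 3.25 for Cxcl13. Of the 12, 11 were still at least 2-fold higher without their richest barcodes. These genes had only 0 to 18 UMIs in WT, and taking out those of the richest WT barcode can raise a ratio, as for Ifitm2. The check therefore says little about the WT side. The Il1b ratio was 1.87 (1.06 to 2.96), and it was -0.53 when the resident and foamy limits were set as shares of UMIs.

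**Figure D4:**
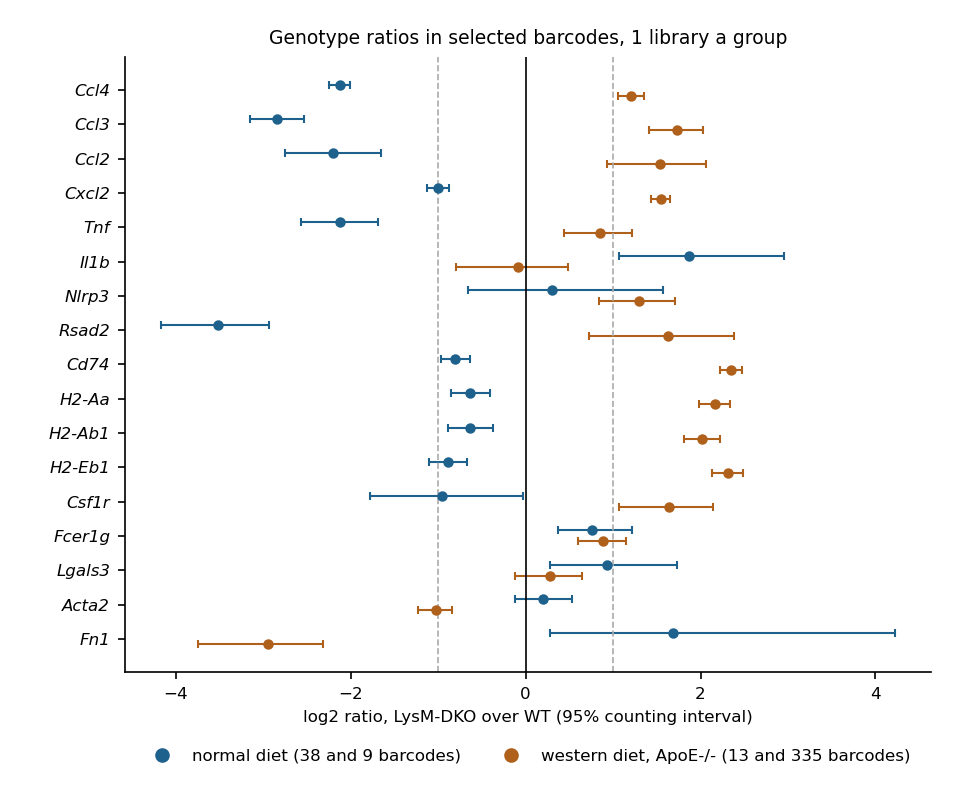
log2 ratio of summed levels, LysM-DKO over WT (x axis, points with 95% counting intervals), for 17 genes in the selected barcodes on normal diet (blue) and on western diet in ApoE-/- (orange). The dashed lines mark 2-fold. Ccl4, Ccl3, Ccl2, Cxcl2, Rsad2 and the MHC class II genes lie left of 0 on normal diet and right of it on western diet.

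On western diet, the LysM-DKO/ApoE-/- library had higher MHC class II than the WT/ApoE-/- library. The log2 ratio was 2.35 (2.23 to 2.48) for Cd74, 2.31 (2.13 to 2.49) for H2-Eb1, 2.16 (1.98 to 2.33) for H2-Aa, 2.02 (1.81 to 2.22) for H2-Ab1 and 2.53 (1.75 to 3.23) for H2-DMb1, a chaperone of peptide loading. Of 5966 genes tested on western diet 12.6% were at least 2-fold higher and 21.2% at least 2-fold lower, 33.7% in all. All 6 MHC class II genes were at least 2-fold higher, with a median of 2.30 beside -0.02 for all genes. Of 8 CC chemokines 5 were higher and 1 was lower (median 1.37), of 7 Fc gamma receptor genes and adaptors 4 were higher and 1 lower (1.07), and of 13 macrophage identity genes 5 were higher and none lower (0.89). Fibroblast genes went the other way, with 9 of 10 lower and a median of -2.77. In kept barcodes with under 5 C1q UMIs, Cd74 had a ratio of -3.63, opposite in sign to that of the selected barcodes.

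The size of these differences depended on which barcodes of WT/ApoE-/- were counted. Among barcodes with at most 100 wall marker UMIs per 10000, 78 in WT/ApoE-/- and 12 in LysM-DKO/ApoE-/-, Cd74 was at 6487 CPM (6169 to 6817) and 13722 (12678 to 14830), a log2 ratio of 1.08. H2-Aa was at 3706 (3466 to 3957) and 7098 CPM (6352 to 7906), a ratio of 0.94, and the median of the MHC class II list was 0.98. Their intervals stayed apart. Ccl4 and Tnf did not keep their direction in these barcodes, while Ccl3 and Cxcl2 did. Ccl4 was at 9422 CPM (9038 to 9819) and 7055 (6312 to 7861), a ratio of -0.42, and Tnf at 1599 and 1118 CPM, a ratio of -0.50. The ratio of Ccl3 was 0.39 and that of Cxcl2 0.46. In these barcodes the intervals of Ccl3 and of Tnf overlapped between the libraries, and those of Ccl4 and of Cxcl2 did not. Il1b was at 1166 CPM (1033 to 1311) in WT/ApoE-/- and 495 (314 to 742) in LysM-DKO/ApoE-/-. Over all selected barcodes its levels were 413 and 380 CPM. The Ccl4 ratio was also below 0 among barcodes with a Csf1r UMI (-0.06) and among those with at least 50 C1q UMIs per 10000 (-0.41). The medians of the macrophage identity, CC chemokine and Fc gamma lists were -0.06, 0.27 and 0.05 in the barcodes low in wall markers. With 1 or more Csf1r UMIs required, the MHC class II median was 1.18.

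**Figure D5:**
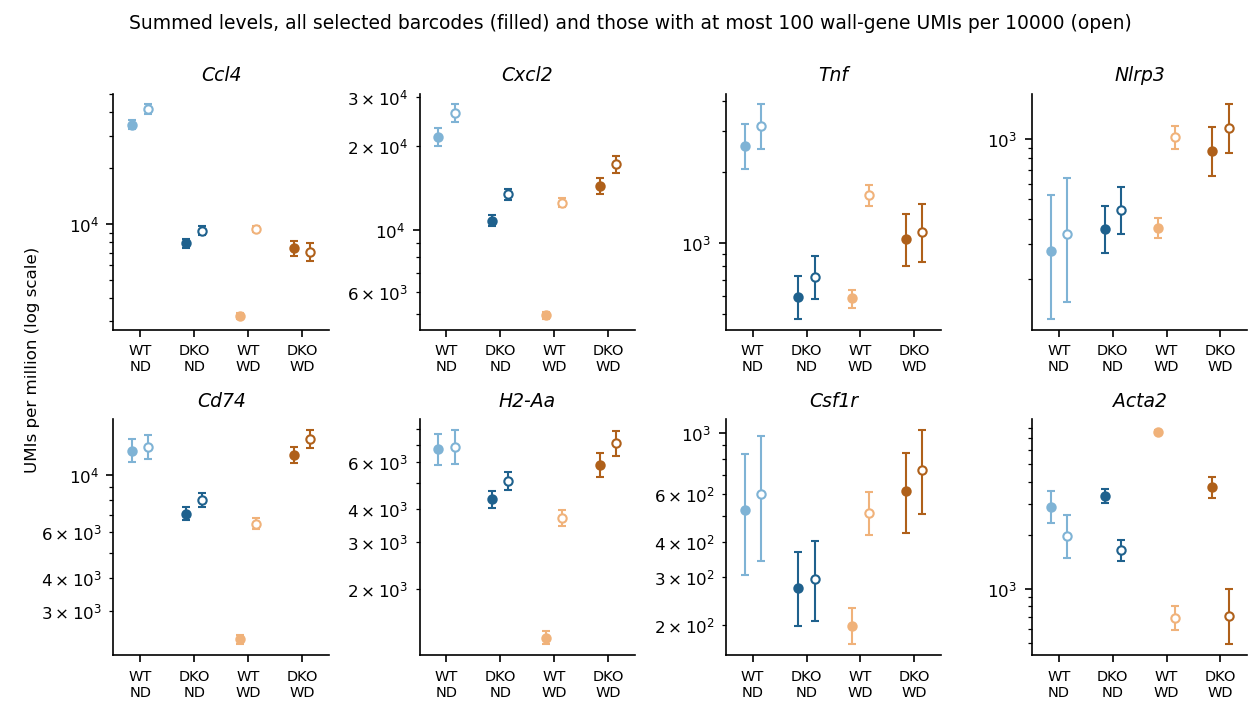
Summed level (y axis, CPM on a log scale that differs by panel, with exact Poisson 95% intervals) of 8 genes in the 4 libraries, ND for normal and WD for western diet, over all selected barcodes (filled) and over those with at most 100 wall marker UMIs per 10000 (open). In WT/ApoE-/- (WT WD) Acta2 is at 7601 and 687 and Ccl4 at 3202 and 9422, and the WT WD and DKO WD points for Cd74 stay apart in both.

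Within WT/ApoE-/- the 2 kinds of selected barcode can be set side by side. The 257 barcodes over 100 wall marker UMIs per 10000 had a median of 1588 UMIs and the 78 others 2513.5. Csf1r was at 79.4 CPM in the first and 512 in the second, Fcer1g at 600.5 and 2486, Cd14 at 175 and 1441, and Nlrp3 at 108 and 1020. Lum, among the genes that make the split, was at 1655 and 108 CPM, and Fn1, the fibronectin gene, at 3139 and 308. Csf1r, Fcer1g, Cd14 and Nlrp3 were therefore each lower in the barcodes rich in wall genes, which made up 76.7% of the set. Whether those barcodes are macrophages with RNA of wall cells, wall cells with RNA of macrophages, or both was not tested.

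Further genes differed on western diet without belonging to these lists. Their ratios are not given here for the barcodes low in wall markers alone. Resf1, which encodes a regulator of retroelement silencing, had 177 UMIs in 106 barcodes of WT/ApoE-/- and none in LysM-DKO/ApoE-/-. With that 0 set at 3 UMIs Resf1 was 4.11-fold lower, and the interval of its log2 ratio ended at -1.72. In the rest of the libraries its ratio was -0.04. Ifih1, the gene of the RNA sensor MDA5, had a ratio of 2.63 (1.84 to 3.34), and -1.75 among barcodes with no resident and no foamy UMI. Vcam1, an adhesion molecule gene, had 831 UMIs and none, 19.3-fold lower in LysM-DKO/ApoE-/- with its 0 set at 3 UMIs, and the rest of the libraries had a ratio of -2.50. Actb, the cytoplasmic actin gene, had a ratio of -1.07 (-1.24 to -0.91). Of 12 cholesterol efflux genes 1 was higher, with a median of 0.49, and Abca1 and Abcg1 had ratios of 0.50 (-0.19 to 1.08) and 0.47 (-0.77 to 1.38), whose intervals include 0.

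The diet comparisons share their libraries with the comparisons above and join western diet with ApoE loss, the sex of the cells and the Cell Ranger version, which cannot be told apart. In WT, all 6 MHC class II genes were at least 2-fold lower in WT/ApoE-/- on western diet (median -2.40 beside 0.29 for all genes), and so were 8 of 8 CC chemokines (median -2.83). Of 5873 genes 28.1% were at least 2-fold higher and 14.1% lower, 42.3% in all. Scaling by the median ratio in place of total UMIs gave 1170 higher and 1285 lower genes in place of 1651 and 831. Without the richest barcodes the CC chemokine median was -0.32. Of the smooth muscle list 9 of 10 genes were higher (median 2.09), which became -0.98 among barcodes low in wall markers, where the MHC class II median was -0.94. Apoe, the gene deleted in ApoE-/-, had a ratio of -8.98 (-10.76 to -7.84). Over all selected barcodes the lysosomal protease genes Ctsl and Ctsd were higher, at 2.50 (0.96 to 5.88) and 2.01 (0.92 to 3.78).

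In LysM-DKO, the diet comparison is that of LysM-DKO/ApoE-/- on western diet over LysM-DKO on normal diet. Of 1763 genes 9.02% were at least 2-fold higher and 10.4% lower, 19.5% in all. That share cannot be set against the 42.3% of the WT pair, because the pairs differ in summed UMIs. Intervals lay above 0 for 204 and below 0 for 148 of the 1763 genes, against 267 and 329 of 5873 in WT. No MHC class II gene differed 2-fold, although 4 of 6 had intervals above 0 (median 0.47 beside 0.03 for all genes). Ccl4 had a ratio of -0.09 (-0.25 to 0.07). The pattern recognition receptor gene Tlr2 was at 677 CPM against 82.7, a ratio of 2.996 (2.10 to 4.06). Hmox1 was lower at -2.95 (-3.78 to -2.29), and the rest of the libraries had -3.99. Ccl8 and Cxcl13, both chemokine genes, had no UMI in LysM-DKO/ApoE-/-. With that 0 set at 3 UMIs they were 18.5-fold and 22.1-fold lower, from 6 and 4 barcodes of LysM-DKO. Their log2 intervals ended at -3.89 and -4.15. Vcam1 was 6.42-fold lower in the same way, a log2 ratio of -5.28 with an interval that ended at -2.33. That ratio became 2.24 when the limits on resident and foamy genes were set as shares of UMIs. Of 17 IL-1, TNF and NF-kB target genes 5 were higher and 3 lower, with a median of 0.56.

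Set beside the resident barcodes of the same library, which is the contrast that the choice itself made, the selected barcodes had fewer transcripts of resident genes that the choice did not use. Of 1437 genes, 0.348% were at least 2-fold higher in all 4 libraries and 1.53% at least 2-fold lower, while 13.6% were higher and 20.1% lower in all 4 by any amount. Of 12 such resident genes, 10 were lower by any amount in all libraries, 4 of them by 2-fold, among them Pf4, platelet factor 4, at -1.33, -2.93, -5.06 and -3.56 in WT, LysM-DKO, WT/ApoE-/- and LysM-DKO/ApoE-/-. Retnla, a marker of alternative activation, was at 1256, 771, 146 and 1045 CPM in resident barcodes and at 1 UMI in all selected barcodes together. Higher in all 4 libraries were Lgals3 at 1.38, 2.49, 1.74 and 3.901, and Il1b at 2.24, 4.63, 1.18 and 3.94, although the WT value of Il1b rests on 1 barcode. Of 9 CC chemokines 5 were lower by any amount in all libraries, 2 of them by 2-fold, and none higher, and of 6 endocytic adaptor genes, all were lower by any amount and 1 by 2-fold, Dab2 at -1.61, -2.33, -1.60 and -1.54. No MHC class II gene kept 1 direction.

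Foamy barcodes, which the choice itself set apart from the selected ones, were numerous enough only in the western diet libraries. Of 1491 genes, 3.09% were at least 2-fold higher in the selected than in the foamy barcodes of both and 2.75% at least 2-fold lower, while 31.5% were higher and 32.3% lower in both by any amount. With marked doublets removed, the 46 higher genes became 7 and the 41 lower ones 30, and with equal weight for each barcode they became 14 and 31. Lipid-associated genes outside the choice were lower by any amount, 17 of 19, and 12 of them by 2-fold, such as the lysosomal proton pump subunit gene Atp6v0d2, with 7 UMIs against 414 in the foamy barcodes of WT/ApoE-/- and 0 against 69 in LysM-DKO/ApoE-/-. Ctsd had ratios of -2.57 and -2.71, and Spp1 of -1.77 and -3.39. Of 8 cholesterol efflux genes 7 were lower, Abca1, Abcg1, Npc1, Npc2, Soat1, Nceh1 and Lipa, 3 of them by 2-fold. Of 18 lysosomal genes 17 were lower by any amount, 7 by 2-fold. Macrophage identity genes outside the choice were lower as well, 6 of 11 by any amount and 2 by 2-fold, and none was higher. Their medians were -1.07 in WT/ApoE-/- and -0.24 in LysM-DKO/ApoE-/-. Whether the lower lysosomal and efflux genes are part of a wider drop in macrophage transcripts was not tested. All 6 MHC class II genes were higher, none by 2-fold in both libraries, with medians of 1.005 and 0.50. All 15 immediate early genes were higher by any amount as well, 2 by 2-fold. The 10 genes highest over foamy barcodes by rank included the smooth muscle genes Myh11, Tpm2, Lmod1 and Mylk, and in LysM-DKO/ApoE-/- 66.7% to 90% of the UMIs of each of the 10 came from 1 barcode. Myh11 had ratios of 1.67 and 1.65, and -0.21 in LysM-DKO/ApoE-/- once marked doublets were removed.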

How the data were processed

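Single-cell RNA was measured in 4 aorta libraries, 1 a group. The deposited values are UMI counts per gene and barcode, made with Cell Ranger 6.0.1 (normal diet) and 6.1.2 (western diet) per the file headers. The submitters' processing notes name Cell Ranger 6.1.2, Seurat 4.1.0 and mm10. The kit was a 10x 3' v3.1 kit per the labels' protocols. No column of per-sample values was left unmapped.

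From the counts, barcodes were kept and selected by the limits given above. UMIs of the selected barcodes were summed per library and scaled to counts per 1000000 UMIs (CPM). Ratios are log2 with 0.5 UMI added, over genes with at least 20 UMIs in the pair, with exact conditional binomial 95% intervals. Levels have exact Poisson and shares exact binomial (Clopper-Pearson) intervals. With 1 library a group no test was made. A gene counted as apart at 2-fold. For shares of barcodes with a UMI, each barcode was thinned to 1000 UMIs. Doublets were scored with Scrublet in scanpy 1.11.5, whose automatic threshold marked almost none, so the top 0.8% per 1000 barcodes of each library was marked, and removed only in an alternative. Python 3.11.15, numpy 2.4.6, scipy 1.17.1 and pandas 2.3.3 were used, and the interval code was tested on simulated data. Gene positions come from GENCODE M21 on GRCm38, which matched 99.8% of the features.

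Genes named by rank had a mean of at least 50 CPM (100 within a library) and, between libraries, a level in the higher library no lower than in barcodes with under 5 C1q UMIs. They were ranked by the end of the interval nearest 0, 12 a direction for genotype and 8 for diet, or within libraries by the smallest ratio among those in the same direction, 10 a direction. Genes of the choice, mitochondrial, ribosomal, hemoglobin, immunoglobulin and sex-linked marker genes were left out. Genes of the 20 pathway and 13 marker lists could be named as well. The members and lists were chosen with earlier results of these data known. Alternatives changed the depth, mitochondrial, C1q, resident and foamy limits, the doublets, the weighting, the scaling and the minimum of UMIs.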

Additional observations from a re-analysis of the deposited data

Results flagged for a closer look

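In 16 genes the LysM-DKO to WT comparison turned over between diets: the log2 ratio passed 2-fold on normal diet one way and on western diet the other, with both intervals clear of 0. The search covered only genes named by rank for genotype, genes that the labels point to and genes of some of the lists. No share over all genes was counted, so whether 16 is many cannot be said. At least 2-fold apart by genotype were 25.3% of genes on normal diet and 33.7% on western diet. Each group is 1 library, so the differences between diets were not tested, and diet cannot be told apart from ApoE loss.

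Among chemokine genes the western ratio exceeded the normal one by 3.73 for Ccl2 (-2.20 and 1.53), 4.57 for Ccl3 (-2.84 and 1.73), 3.33 for Ccl4 (-2.13 and 1.21) and 2.55 for Cxcl2 (-1.001 and 1.55). For Cxcl2 the normal diet ratio was 0.11 without its richest barcodes, and for Ccl4 the western ratio was -0.42 among barcodes low in wall genes. Ccl3 and Cxcl2 were less than 2-fold apart on western diet in those barcodes. Ccl3 was there at 1595 CPM in WT/ApoE-/- and 2086 in LysM-DKO/ApoE-/-, and Cxcl2 at 12566 and 17250 in the same order. Among innate sensors and interferon-stimulated genes the western ratio exceeded the normal one by 3.68 for Ifih1, 4.20 for Tlr2 and 5.15 for Rsad2. The normal diet ratio of Rsad2 was -0.16 without its richest barcodes. For Ifih1 the western ratio was -1.75 among barcodes with no resident and no foamy UMI. The resident macrophage genes Mgl2 and Pf4 differed by 4.08 and 4.56, and Eps8, the gene of an actin-capping signalling adaptor, by 5.47.

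In the other direction the western ratio lay below the normal one, with a difference of -4.64 for Fn1, -2.89 for Ifitm3, -6.56 for Plac8, -6.37 for Resf1, -8.47 for Spp1 and -7.76 for Thbs1. Plac8, Spp1 and Thbs1 had no UMI in WT on normal diet, and the normal diet ratio of Spp1 was -0.69 without its richest barcode. Fn1 was less than 2-fold apart on western diet among barcodes low in wall genes, at 308 CPM in WT/ApoE-/- and 194 in LysM-DKO/ApoE-/-.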

How the results depend on the processing

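No paired analysis was possible because each group has 1 library and the labels carry no replicate numbers. Leaving out a replicate was not run for the same reason. The 4 alternatives on C1q per 10000 UMIs, wall genes, the richest barcode and share limits within libraries were chosen after seeing the data. The alternative on the richest barcode took out only the UMIs of the gene in it and left the library total as it was. Where values moved, the cause was not tested.

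The share of selected barcodes in WT, LysM-DKO, WT/ApoE-/- and LysM-DKO/ApoE-/- became 0.0258%, 0.182%, 0.924% and 0.0492% with no resident or foamy UMI allowed. In LysM-DKO it was 0.267% at 10 or more C1q UMIs or at 50 per 10000, 0.255% with a Csf1r UMI, 0.316% with limits as shares of UMIs and 0.304% at low wall genes. In WT/ApoE-/- these values were 0.844%, 1.06%, 0.698%, 1.22% and 0.568%, with 1.85% at 2000 or more UMIs. The Ccl4 share there was 52.5% without thinning.

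Genes 2-fold apart by genotype on normal diet, 379, were 190 with no resident or foamy UMI, 199 at high C1q per 10000 and 3505 with no minimum of UMIs. On western diet the 2013 became 739 at 10 C1q UMIs, 1283 with no resident or foamy UMI, 626 with Csf1r, 1182 with share limits, 664 at high C1q per 10000, 382 at low wall genes and 7460 with no minimum. By diet in WT, 2482 became 1204, 1176, 1025, 832 (high C1q per 10000), 702 (low wall genes) and 8533 (no minimum), the first 3 at 10 C1q UMIs, no resident or foamy UMI and Csf1r. In LysM-DKO 343 became 199 with Csf1r, 228 at high C1q per 10000 and 3986 with no minimum. With no minimum the share of calls that were higher went from 67.5% to 40.4% (genotype, normal diet), 37.2% to 75.6% (genotype, western diet), 66.5% to 19.3% (diet, WT) and 46.4% to 63.0% (diet, LysM-DKO). Median-ratio scaling left 47.7% of the WT diet calls higher in place of 66.5%. Over foamy barcodes 87 (46 higher) became 37 (7 higher) without doublets, 45 (14 higher) with equal weights and 212 with share limits, and over resident barcodes 27 became 41 with equal weights and 53 at low wall genes.

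Among values at least 2-fold apart, directions turned as follows. With no resident or foamy UMI, where WT has 2 barcodes, the normal diet genotype ratios were 2.26 for the resident list, 3.05 for Ccl3, 6.03 for Ccl4, 3.97 for Cxcl2 and 2.40 for Tnf, that of Ifih1 on western diet was -1.75, and the WT diet ratios were 1.79 for CC chemokines, 1.30 for the resident list, 3.30 for Ccl3, 5.90 for Ccl4, 1.45 for Ccl7, 4.09 for Cxcl2, 0.41 for Ifit2, 0.16 for Lyz2, 0.094 for Oasl1, 0.80 for Rsad2 and 3.38 for Tnf. With share limits Il1b on normal diet was -0.53, the monocyte list and S100a4 on western diet 0.017 each, AA467197 by diet in WT -0.92 and Vcam1 by diet in LysM-DKO 2.24. The smooth muscle list on normal diet was -0.18 at high C1q per 10000 and -0.055 at low wall genes, and by diet in WT -0.98 at low wall genes. Without the richest barcode Spp1, Ccl7 and Procr on normal diet were -0.69, 1.66 and 1.10, and Ccl7 by diet in WT 0.45. Ccl4 on western diet was -0.060 with Csf1r, -0.41 at high C1q per 10000 and -0.42 at low wall genes, and Myh11 over foamy barcodes -0.21 without doublets. Values under 2-fold changed sign in 149 of 977 cases, such as, on western diet, Tnf (0.85) at -0.50 and the macrophage identity median (0.89) at -0.059, both at low wall genes, and, on normal diet, the CC chemokine median (-0.97) at 3.24 with no resident or foamy UMI. Without the richest barcodes that median was 1.68 and Cxcl2 on normal diet 0.11. The median of MHC class II kept its sign under every alternative in both genotype comparisons.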
